A study of Homo sapiens with 12 samples.

Results

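The human mitochondrial genome is a small circular DNA that encodes 37 genes, and all of them were among the 58735 genes measured. They were chosen by name, as the genes whose symbol begins with MT-, and every one lay on the mitochondrial chromosome. They comprise 13 mRNAs for subunits of the respiratory chain and ATP synthase, 2 rRNAs of the mitochondrial ribosome and 22 tRNAs. Reads were found on all 13 mRNAs, on both rRNAs and on 2 of the tRNAs, and the other 20 tRNAs were listed at 0 in every library.

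The RNA came from NCM460, a human intestinal epithelial cell line, and was sequenced from poly(A)-selected RNA in 12 libraries, 3 in each of 4 groups. Wild-type cells were kept in medium, given TNF-α, an inflammatory cytokine, or given TNF-α together with 5-OH-TMT, a trimethylated tryptamine that the labels call Bufotenidine. The fourth group received TNF-α after siRNA knockdown of HTRA2, a serine protease of the mitochondrial intermembrane space that the study examined as a binding partner of 5-OH-TMT. The labels do not say whether the TNF-α libraries carried a control siRNA or whether the knockdown libraries share 1 siRNA. The study's legends compare the knockdown with a control siRNA, and its methods list 3 siRNAs to HTRA2 without assigning them to libraries. The labels also do not say whether the libraries of a group came from separate cultures. The p-values therefore measure the spread between these libraries only, which may be technical.

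Both strands of the mitochondrial genome are transcribed into long RNAs, from which the tRNAs between the genes are cut out so that the mRNAs and rRNAs are released. The heavy-strand transcript carries both rRNAs and all mRNAs except MT-ND6, which is read from the light strand. Most mature mRNAs receive a short poly(A) tail, which completes the stop codon where the gene ends inside it, whereas rRNAs carry only a few added adenines and tRNAs end in CCA. A poly(A)-selected library therefore favours the mRNAs with a tail, and the levels of the 3 classes cannot be compared with each other as amounts in the cell.

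The sequences show how these genes end. They are printed 5′ to 3′ in the sense of the gene, from GRCh38, and all 37 genes had the start, end and strand given by GENCODE 29. Of the 13 mRNAs, 6 end in an incomplete stop codon in the annotation, 5 of them in a single base and 1 in 2 bases, and 7 end in a whole codon. The last 24 bases of 4 mRNAs are shown with the final stop bases in capitals. MT-CO3 (chrM:9967-9990, plus strand) and MT-ND4 (chrM:12114-12137, plus strand) stop at a lone T, MT-CO2 (chrM:8246-8269, plus strand) at TAG and MT-ND6 (chrM:14149-14172, minus strand) at AGG:
MT-CO3: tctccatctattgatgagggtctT
MT-ND4: acatcattaccgggttttcctctT
MT-CO2: atagggcccgtatttaccctaTAG
MT-ND6: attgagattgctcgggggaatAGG

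Neither rRNA ends in adenines in the genome. Both hold an internal run of adenines, shown in capitals because the rRNAs are the members whose level differed in the knockdown. The run is 6 bases long in MT-RNR1 (chrM:984-1007, plus strand) and 7 bases in MT-RNR2 (chrM:2448-2472, plus strand). Among the mRNAs the longest run is 8 bases in MT-ND5 and 7 in MT-CO1, MT-ND2 and MT-ND4. The part of these runs in the level of the rRNAs was not tested. The ends of the rRNAs are at chrM:1578-1601 and chrM:3206-3229:
MT-RNR1 end: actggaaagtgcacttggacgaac
MT-RNR1 run: ctgagttgtAAAAAActccagttg
MT-RNR2 end: cacacccacccaagaacagggttt
MT-RNR2 run: ggaaaggttAAAAAAAgtaaaagga

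The targeted gene followed its label. HTRA2 was measured at 7.44, 7.18 and 7.22 FPKM in the knockdown libraries and at 13.3 to 17.2 FPKM in the other 9, a log2 fold change against TNF-α of -0.98 ± 0.087 (SE, n = 3 per group, limma adjusted p = 2.8e-05). Of the cell type markers, EPCAM, CDH1, KRT8 and KRT18 were present, whereas CDX1, CDX2, VIL1, KRT20, LGALS4 and CDH17, which mark colon epithelium, did not exceed 0.179 FPKM in any library, and KRT5, of basal epithelium, lay between 112 and 184 FPKM. Some markers moved with the knockdown: CDH1 was at 81.1 to 88.4 FPKM there and 53.3 to 67.7 in the other 9 libraries, KRT19 at 3.35 to 4.35 and 1.91 to 3.32, COL1A1, of fibroblasts, at 2.60 to 3.21 and 0.974 to 1.46, and TP63, of basal epithelium, at 9.38 to 10.1 and 10.45 to 13.9. The other markers of these types did not follow. KRT5 reached higher but overlapped (145 to 184 and 112 to 146), as did KRT14, also of basal epithelium (39.1 to 43.2 and 31.6 to 42.6). COL3A1 and PDGFRB, of fibroblasts, did not exceed 0.0270 FPKM in any library. Their part in the results was not tested. The libraries held 31008429 to 37624399 reads on genes. Knockdown library 2 stood apart from libraries 1 and 3 of its group, as the chi-squared of its read counts, divided by the degrees of freedom, was 35.0 and 45.4 against them and 7.35 between the latter, and its effect is given beside the knockdown results that change without it.

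Reads on the 13 mRNAs made up several percent of each library. Their share of the reads on genes was 4.52%, 4.30% and 4.50% in medium, 4.18%, 4.40% and 3.57% with TNF-α, 3.91%, 3.89% and 4.001% after 5-OH-TMT, and 3.98%, 2.68% and 4.27% in the knockdown. The lowest share was that of knockdown library 2 and the next that of TNF-α library 3, while the other 10 libraries lay between 3.89% and 4.52%. The group means were 4.44% ± 0.12 in medium, 4.05% ± 0.43 with TNF-α, 3.93% ± 0.059 after 5-OH-TMT and 3.64% ± 0.85 in the knockdown (SD, n = 3). The groups overlapped in each of the 3 comparisons. Without library 2 the knockdown mean was 4.13%, and the difference from TNF-α went from -0.41 to 0.077 percentage points, whereas without TNF-α library 3 it was -0.65. Counting error was far smaller than these differences, with 95% Wilson intervals that reached at most 0.0073 points to either side, which covers counting error only. In bulk libraries a share is relative to all other reads, and fewer cells of a type and less RNA per cell cannot be told apart.

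The rRNAs had a different order. Their share was 0.148%, 0.148% and 0.178% in medium, 0.132%, 0.121% and 0.123% with TNF-α, 0.131%, 0.128% and 0.124% after 5-OH-TMT, and 0.226%, 0.264% and 0.223% in the knockdown. All 3 knockdown libraries lay above the other 9, and knockdown library 2, which had the lowest mRNA share, had the highest rRNA share. Per 100 mRNA reads there were 2.74 to 3.95 rRNA reads in the other 9 libraries and 5.68, 9.83 and 5.22 in the knockdown.

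**Figure D1:**
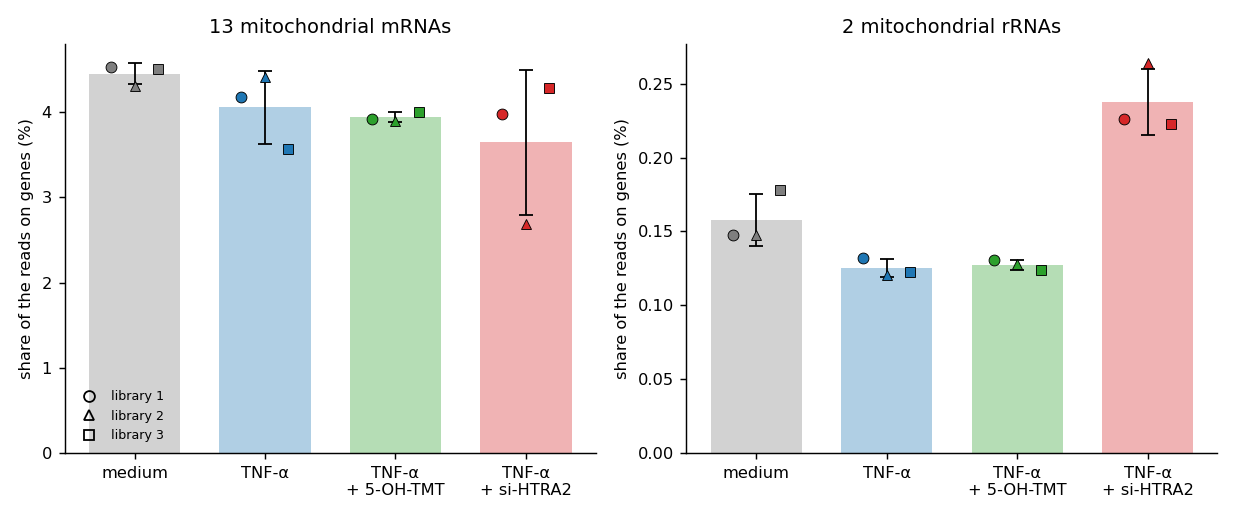
Share of the reads on genes (%) taken by the 13 mitochondrial mRNAs (left) and the 2 rRNAs (right). Bars are group means, error bars are SD (n = 3) and symbols are libraries 1 to 3; knockdown library 2 is lowest for mRNAs at 2.68% and highest for rRNAs at 0.264%.

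The levels of the mRNAs are given as FPKM, reads scaled to gene length and to library size. This scale does not correct for poly(A) selection or for reads over overlapping genes. A rank between genes is therefore a rank of FPKM and not of amounts in the cell. By mean FPKM over the 12 libraries, MT-CO2, MT-CO1, MT-ND4, MT-ATP6 and MT-CO3 ranked 1 to 5 among all 58735 genes in that order. The lowest mRNA was MT-ATP8, at rank 532.

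The 3 mRNAs of complex IV, cytochrome c oxidase, encode its catalytic core and made up 48.0% to 51.2% of the summed mRNA FPKM. MT-CO1, whose protein holds the site where oxygen is reduced, was measured at 8272, 8564 and 8032 FPKM in medium, 7594, 8142 and 6998 with TNF-α, 7371, 7366 and 7516 after 5-OH-TMT, and 8015, 5805 and 8963 in the knockdown. MT-CO2, which accepts electrons from cytochrome c, was at 9861, 10375 and 9480.4 in medium, 9634, 10129.6 and 7978 with TNF-α, 9229, 9567 and 9334 after 5-OH-TMT, and 9127, 5252 and 9990.1 in the knockdown. For both genes the knockdown range contained most values of the other groups, with library 2 low and library 3 high. MT-CO3, a core subunit without metal centres, was at 3806, 3558 and 3533 in medium, 3581, 3755 and 2830.1 with TNF-α, 3437, 3467 and 3518 after 5-OH-TMT, and 2919, 1731 and 3199 in the knockdown. Two-sided limma tests called none of the 3 in any comparison. The knockdown difference of MT-CO3 was -0.41 ± 0.19 on the log2 scale (SE, adjusted p = 0.167), and it was -0.14 (adjusted p = 0.476) without knockdown library 2.

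The 7 mRNAs of complex I, NADH dehydrogenase, encode parts of its membrane arm, through which protons are pumped. MT-ND4 was the highest of them, at 5928, 5875 and 6008 FPKM in medium, 5777, 6269 and 4804 with TNF-α, 5621, 5351 and 5779 after 5-OH-TMT, and 5789, 3924 and 6372 in the knockdown. MT-ND1 was at 1955, 1855 and 1874 in medium, 1729.9, 2079 and 1407 with TNF-α, 1665, 1673 and 1764 after 5-OH-TMT, and 1653, 926 and 1940.0 in the knockdown. MT-ND2 was at 1985, 1913 and 2047 in medium, 1937, 2187 and 1592 with TNF-α, 1758, 1771 and 1826 after 5-OH-TMT, and 1563, 909 and 1861 in the knockdown. In all 3 genes the medium libraries were close together, TNF-α library 3 was the lowest of its group and knockdown library 2 the lowest of all 12. MT-ND3 was at 2119, 2166 and 2589 in medium, 2251, 2314 and 1738 with TNF-α, 1946, 2300.2 and 1878 after 5-OH-TMT, and 1664, 1198 and 1849 in the knockdown. Its knockdown difference of -0.43 ± 0.17 (log2, SE) had the smallest adjusted p of any mRNA in the 3 comparisons, 0.0979, and it was -0.25 (adjusted p = 0.276) without knockdown library 2. MT-ND4L, whose gene overlaps that of MT-ND4 by 7 bases, was at 2689, 2346 and 2586 in medium, 2502, 2366 and 1642 with TNF-α, 2248, 2164 and 2264 after 5-OH-TMT, and 2329.5, 1957 and 2630.3 in the knockdown. It was the single mRNA whose knockdown log2 fold change was above 0, at 0.10 ± 0.15, a value that did not pass the test and was -0.088 without TNF-α library 3.

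MT-ND5 and MT-ND6 lie end to end on opposite strands and were the lowest of the complex I mRNAs. MT-ND5 was at 968, 856 and 913 FPKM in medium, 752, 825 and 614 with TNF-α, 694, 726 and 718 after 5-OH-TMT, and 702, 480.3 and 819.7 in the knockdown. The 3 medium libraries lay above the 3 TNF-α libraries, and the log2 fold change was -0.33 ± 0.17 (SE, adjusted p = 0.393), which ranged from -0.42 without TNF-α library 2 to -0.21 without TNF-α library 3. The ratio of MT-ND5 to MT-ND4, neighbours in the genome with only 3 tRNA genes between them, was 0.146 to 0.163 in medium and 0.121 to 0.136 in the other 9 libraries. MT-ND6, the only light-strand mRNA, was at 666, 607 and 703 in medium, 505, 674 and 517 with TNF-α, 427, 506 and 464 after 5-OH-TMT, and 465, 404 and 586 in the knockdown. Its difference between 5-OH-TMT and TNF-α was -0.27 ± 0.14 (log2, SE, adjusted p = 0.309), the groups overlapped, and the difference ranged from -0.35 without TNF-α library 1 to -0.14 without TNF-α library 2. Whether the counting used the strand is not given in the sources used here, so reads from MT-ND6 and from the opposite strand of the same stretch cannot be told apart.

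MT-CYB encodes the catalytic subunit of complex III that passes electrons from ubiquinol. It was at 2577, 2512 and 2425 FPKM in medium, 2421, 2735 and 1876 with TNF-α, 2417, 2272 and 2475 after 5-OH-TMT, and 2104, 1095 and 2389 in the knockdown. The TNF-α group spanned all 3 libraries of medium and of 5-OH-TMT, and the knockdown difference of -0.39 ± 0.23 (log2, SE, adjusted p = 0.289) was -0.047 (adjusted p = 0.861) without library 2.

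MT-ATP6 and MT-ATP8 encode membrane subunits of ATP synthase, the enzyme that makes ATP from the proton gradient. MT-ATP6 forms the proton channel and was at 3669, 3648 and 3576 FPKM in medium, 3563, 3970.1 and 2696 with TNF-α, 3497, 3422 and 3681 after 5-OH-TMT, and 3144, 1608 and 3567 in the knockdown. Medium and 5-OH-TMT libraries varied little and knockdown library 2 was at less than any other library. MT-ATP8 was at 81.1, 63.8 and 98.9 in medium, 76.0, 147 and 79.7 with TNF-α, 56.2, 82.1 and 61.8 after 5-OH-TMT, and 53.0, 63.0 and 74.6 in the knockdown. These genes share 46 bases (chrM:8527-8572, plus strand), printed here because both proteins are read from 1 mRNA. The capitals mark the start codon of MT-ATP6 and the stop codon of MT-ATP8:
MT-ATP8 and MT-ATP6 overlap: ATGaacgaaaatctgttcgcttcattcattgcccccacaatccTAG

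Although the same mRNA carries both reading frames, the MT-ATP6 FPKM was 25.5 to 62.3 times that of MT-ATP8. MT-ATP8 is 207 bases long. How reads over both genes were counted is not given in the sources used here, and the part of gene length and overlap in this ratio was not tested. MT-ATP8 had the lowest log2 fold change of the mRNAs with 5-OH-TMT, -0.55 ± 0.25 (SE, adjusted p = 0.244), and in the knockdown, -0.61 ± 0.25 (SE, adjusted p = 0.113), both against a TNF-α group whose library 2 was high. Without that library they were -0.24 and -0.31.

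**Figure D2:**
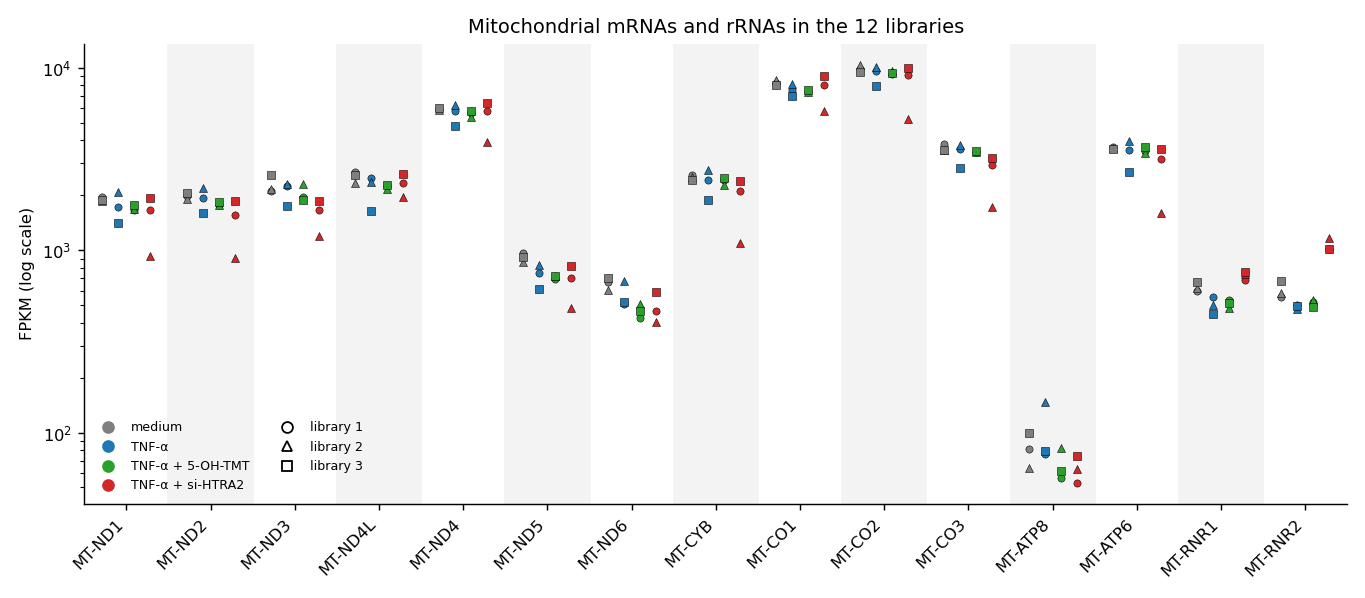
FPKM (log axis) of the 13 mitochondrial mRNAs and 2 rRNAs in the 12 libraries, coloured by group, with the symbol giving the library number. Knockdown library 2, the red triangle, falls below the other knockdown libraries for most mRNAs, and all knockdown libraries lie above the rest for MT-RNR2.

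TNF-α against medium asks what the cytokine changed. None of the 13 mRNAs was called at an adjusted p under 0.05 by limma on FPKM or by voom on the recovered reads, which called 4.95% of all genes in either direction. None had an unadjusted p under 0.05 by limma, where 2673 of all 18079 genes had one. Voom with knockdown library 2 left out, which changes the shared estimate of the spread, called 1115 of all 18079 genes, among them MT-ND5 (-0.33, adjusted p = 0.0136). The median log2 fold change of the 13 mRNAs was -0.11, with 12 of 13 below 0, against a median of -0.0020 over all genes, and it was 0.0016 without TNF-α library 3, so its sign rests on that library. Of all 18079 genes tested, 3.22% were called higher and 0.885% lower. Of the 13 mRNAs, MT-ND5 was lower with no overlap between the groups and none was higher, where 8.74% of all genes were lower and 11.1% higher in this way. No member reached a fold change of 2 with an unadjusted p of at most 0.05, the study's definition of a differentially expressed gene, which 2.73% of all genes met.

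5-OH-TMT added to TNF-α asks what the compound changed in stimulated cells. It left the 13 mRNAs with a median log2 fold change of -0.014, with 5 above and 8 below 0, and none was called by limma on FPKM or by voom, which called 2.06% of all genes in either direction. The median ranged from -0.13 without TNF-α library 3 to 0.083 without TNF-α library 2. The background was low, as 0.0332% of all genes were called higher and 0.00553% lower. MT-ATP8 alone had an unadjusted p under 0.05, at 0.0473, where 3632 of all 18079 genes had one. No mRNA had groups without overlap, where 16.3% of all genes were higher and 15.5% lower without overlap, and no member met the study's definition, where 1.5% of all genes did. The next lowest log2 fold change was the -0.27 of MT-ND6.

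HTRA2 knockdown against TNF-α compares stimulated cells given siRNA to HTRA2 with the TNF-α group. The study's legend names a control siRNA for its knockdown comparison, but no library label does. Since the labels do not say whether the TNF-α libraries carried it, loss of HTRA2 and siRNA transfection cannot be told apart. This holds for every knockdown result. None of the 13 mRNAs was called, 2 had an unadjusted p under 0.05 (MT-ND3 and MT-ATP8), and the median log2 fold change was -0.26 with 12 of 13 below 0. Of all 18079 genes tested, 5628 had an unadjusted p under 0.05, 9.35% were called higher and 8.08% lower. Only MT-ATP8 was lower without overlap and none was higher, where 16.4% and 17.5% of all genes were. Without knockdown library 2 the median was -0.0075 and 6 mRNAs were above 0, and without TNF-α library 3 it was -0.40. With a different test, voom on the recovered reads, 4 mRNAs passed the threshold and were lower, MT-ND2, MT-ND3, MT-CO3 and MT-ATP8, with adjusted p between 0.0161 and 0.0438, where the same test called 9.45% of all genes lower. Voom without knockdown library 2 called 3956 of all 18079 genes but none of the 13, with MT-ND2 at -0.15 (adjusted p = 0.275), MT-ND3 at -0.25 (adjusted p = 0.103), MT-CO3 at -0.14 (adjusted p = 0.267) and MT-ATP8 at -0.60 (adjusted p = 0.0606).

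**Figure D3:**
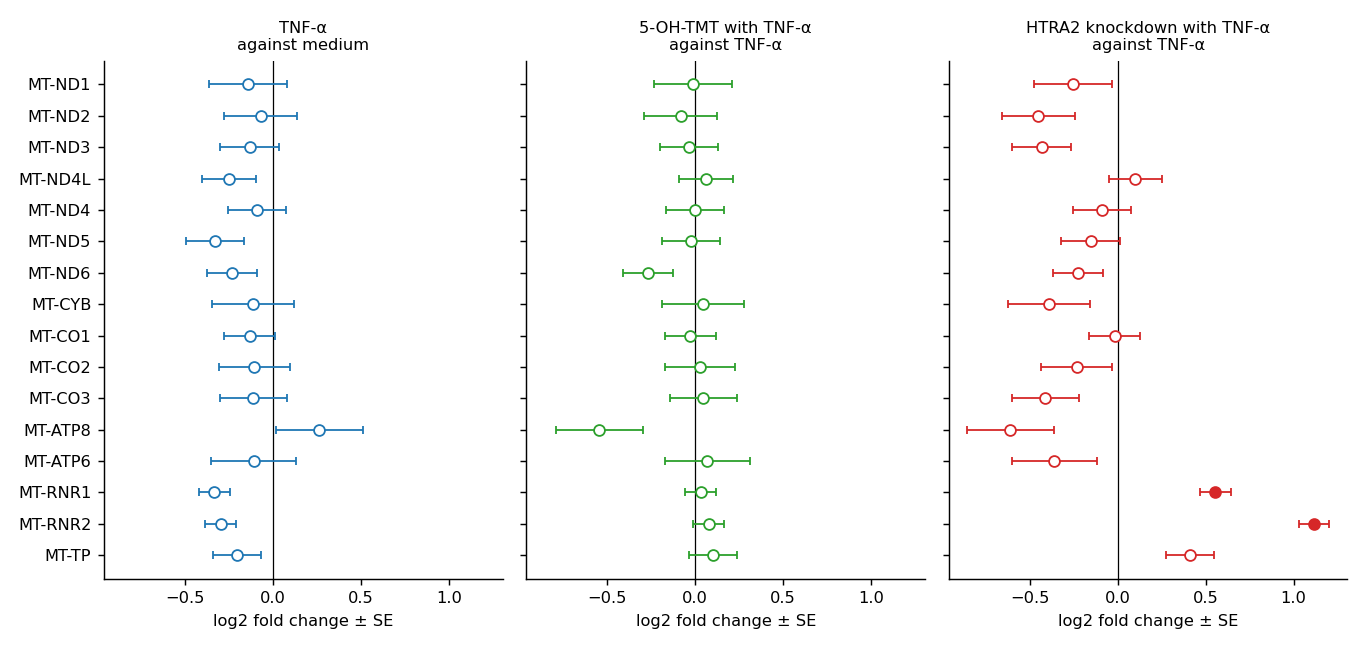
Log2 fold change ± SE (limma, n = 3 per group) of the 13 mRNAs, the 2 rRNAs and MT-TP in the 3 comparisons. Filled points have an adjusted p under 0.05, which holds for MT-RNR1 and MT-RNR2 in the knockdown and for no other point shown.

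Both rRNAs rose in the knockdown. MT-RNR2 (chrM:1671-3229, plus strand), the 16S rRNA of the large mitochondrial ribosomal subunit, was at 552, 581 and 674 FPKM in medium, 498, 476 and 491 with TNF-α, 521, 535 and 491 after 5-OH-TMT, and 1015, 1160.1 and 1009.5 in the knockdown. Every knockdown library was above every other library. The mean of 1062 ± 85.4 was 2.17 times the TNF-α mean of 489 ± 11.2 (SD, n = 3), a log2 fold change of 1.12 ± 0.087 (SE, adjusted p = 1.48e-05). MT-RNR2 was the single member that met the study's definition of a differentially expressed gene, as 4.23% of all genes did in this comparison.

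MT-RNR1 (chrM:648-1601, plus strand), the 12S rRNA of the small subunit, was at 594, 621 and 669 FPKM in medium, 551, 503 and 444 with TNF-α, 533, 482 and 512 after 5-OH-TMT, and 689.6, 741 and 763 in the knockdown. The knockdown libraries were again above all others, although the nearest medium library was close. The log2 fold change was 0.55 ± 0.088 (SE, adjusted p = 0.0012), from a mean of 499.5 ± 53.5 to 731 ± 37.7 (SD, n = 3). Leaving out knockdown library 2, the changes were 1.05 for MT-RNR2 (adjusted p = 3.6e-05) and 0.54 for MT-RNR1 (adjusted p = 0.00326). The 2 rRNAs did not rise equally: the FPKM ratio of MT-RNR2 to MT-RNR1 was 0.904 to 1.11 in the other 9 libraries and 1.47, 1.57 and 1.32 in the knockdown, with no overlap.

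With TNF-α, both rRNAs lay below medium in every library, with log2 fold changes of -0.33 ± 0.088 for MT-RNR1 (SE, adjusted p = 0.0585) and -0.30 ± 0.087 for MT-RNR2 (SE, adjusted p = 0.0903), which did not pass the threshold. MT-RNR1 passed it under other settings, among them voom on the recovered reads (adjusted p = 0.017), and so did MT-RNR2 under voom (adjusted p = 0.0418). With 5-OH-TMT the differences from TNF-α were 0.031 ± 0.088 and 0.076 ± 0.087.

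RN7SL2, a copy of the 7SL RNA of the signal recognition particle, is not polyadenylated and was chosen after its values were seen. It was at 853, 932 and 958 FPKM in medium, 670.3, 406 and 517 with TNF-α, 338, 404 and 440.0 after 5-OH-TMT, and 605, 754 and 1060.1 in the knockdown. Knockdown library 1 lay within the range of TNF-α, and the knockdown difference of 0.59 ± 0.20 (log2, SE, adjusted p = 0.0659) did not pass the threshold. The genes of cytosolic ribosomal proteins took 6.10% to 6.48% of the reads in the knockdown and 6.97% to 8.11% in the other libraries. The part of poly(A) selection in the rRNA result was not tested.

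Of the tRNAs, MT-TP and MT-TF, the outermost genes on either side of the control region from which transcription starts, were the only ones with reads. MT-TP, the proline tRNA on the light strand (chrM:15956-16023, minus strand), is printed whole because it carried nearly all tRNA reads:
MT-TP: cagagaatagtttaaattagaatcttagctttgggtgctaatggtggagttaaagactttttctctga

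MT-TP was at 295, 271 and 290.4 FPKM in medium, 251, 282 and 216 with TNF-α, 263, 304 and 237 after 5-OH-TMT, and 349, 268 and 384 in the knockdown, from 547 to 951 reads. As for MT-ND6, the strand of these reads is not known, so reads from the tRNA and from the opposite strand cannot be told apart. Knockdown libraries 1 and 3 were the highest of the 12, while library 2 fell within the range of TNF-α. The knockdown log2 fold change was 0.41 ± 0.14 (SE, adjusted p = 0.0598), and it was 0.56 (adjusted p = 0.0088) without knockdown library 2. It was 0.31 (adjusted p = 0.196) without TNF-α library 3. Of the other settings that kept all libraries, 5 gave an adjusted p between 0.0231 and 0.0389, and the rest gave up to 0.152. MT-TF, the phenylalanine tRNA ahead of MT-RNR1, had 0 to 5 reads. For the 20 tRNAs at 0, of 59 to 75 bases, a count of 0 allows up to 1.07 to 1.63 FPKM (3 reads), for counting error only. Most of these genes adjoin or overlap a neighbouring gene, and how reads over 2 genes were counted is not given. The limit therefore does not cover reads that were left out or given to a neighbour, and it is no limit on the tRNA in the cell. They include MT-TS1 and MT-TD, which lie between MT-CO1 and MT-CO2.

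The loss of mRNA reads in knockdown library 2 was not shared by all members. Its FPKM over the mean of knockdown libraries 1 and 3 was 0.479 for MT-ATP6, 0.488 for MT-CYB, 0.516 for MT-ND1, 0.531 for MT-ND2 and 0.549 for MT-CO2. It was 0.684 for MT-CO1, 0.769 for MT-ND6, 0.789 for MT-ND4L and 0.986 for MT-ATP8, with a median of 0.631 over the 13 mRNAs. MT-RNR1 and MT-RNR2, from the same heavy-strand transcript, had ratios of 1.02 and 1.15. The median over the 11185 genes that averaged 1 FPKM or more was 0.979. The share of them with a lower ratio was 0.393% for MT-ATP6, 3.50% for MT-CO1, 10.3% for MT-ND6, 12.99% for MT-ND4L and 51.6% for MT-ATP8, so the low rank did not hold for every mRNA. The shortfall in TNF-α library 3 was smaller and more even, from 0.675 for MT-ND4L to 0.889 for MT-CO1 of the mean of TNF-α libraries 1 and 2.

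**Figure D4:**
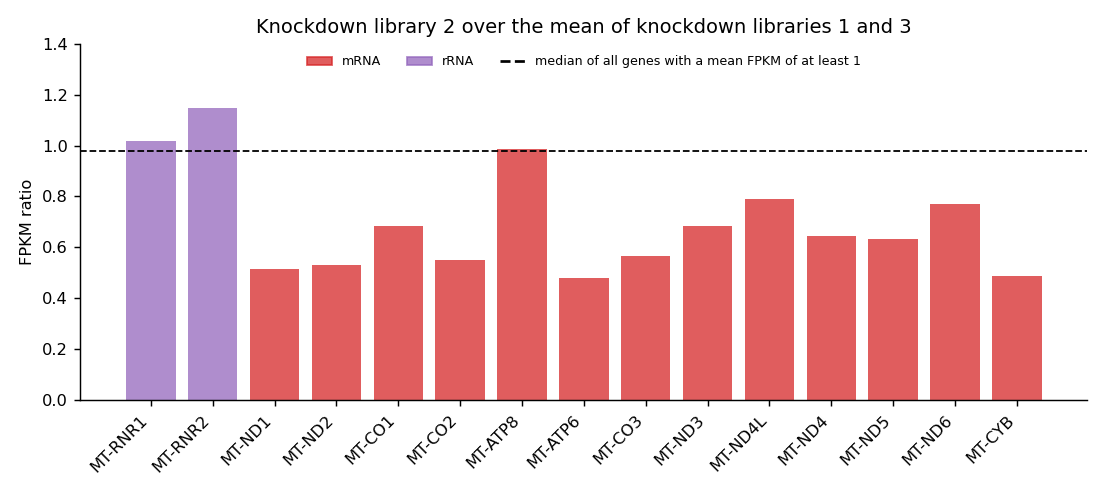
FPKM of knockdown library 2 over the mean of knockdown libraries 1 and 3 for each mRNA and rRNA in genome order; the dashed line is the median of all genes averaging 1 FPKM or more, 0.979. The mRNAs run from 0.479 to 0.986, and both rRNAs lie above the line.

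As a share of the summed FPKM of the 13 mRNAs, some genes kept a steady part and others did not. In the knockdown, MT-CO1 made up 20.3%, 22.9% and 20.3% against 17.9%, 17.9% and 20.1% with TNF-α, and MT-ND4 14.6%, 15.5% and 14.4% against 13.7%, 13.7% and 13.8%. Both were higher in every knockdown library, MT-CO1 by a small margin over TNF-α library 3. MT-CO3 made up 7.38%, 6.83% and 7.23% against 8.46%, 8.24% and 8.14%, and MT-ND2 and MT-ND3 were lower without overlap as well. In all, 2 mRNAs had a higher part and 3 a lower part without overlap in the knockdown, against 0 and 1 (MT-ND5) with TNF-α and 1 (MT-CO3) and 1 (MT-ND2) with 5-OH-TMT. These parts sum to 100%, so a larger part of one gene makes the others smaller, and they were not tested. By FPKM, 17.5% of all genes were higher and 16.4% lower without overlap in the knockdown. The shares were 11.1% and 8.74% for TNF-α against medium, and 16.3% and 15.5% for the compound against TNF-α. No such background was computed for parts of a sum, so the counts alone do not show a shift in composition. By complex, the part of complex V in knockdown library 2 was 6.59% and that of complex III 4.32%, each the lowest of the 12 libraries.

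Copies of mitochondrial genes in the nuclear genome can take reads from the members, because their sequences are nearly the same. Of 407 such copies listed, 56 had reads and 3 had a mean of at least 100 reads per library. MTATP6P1, on chromosome 1 and identical to MT-ATP6 at 98.5% of bases, held 13918 to 22026 reads. MTND2P28 (98.4% identical to MT-ND2) held 942 to 2727 and MTCO1P12 (98.6% identical to MT-CO1) 1103 to 1545. The copies together held 1.55 to 1.76 reads per 100 reads on the mRNAs. For MT-ATP6 the part was larger, as MTATP6P1 averaged 19612 reads beside 79135 on MT-ATP6. In knockdown library 2 they held 13918 and 39501 reads, against 18502 and 77241 in library 1 and 20774 and 88532 in library 3. The part of this copy in the low ratio of MT-ATP6 in library 2 was not tested. The lowest MTATP6P1 and MTND2P28 counts were both those of knockdown library 2, where MT-ATP6 and MT-ND2 were also lowest, and reads of a gene and its copy cannot be fully told apart.

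The genes that transcribe, process and degrade mitochondrial RNA are encoded in the nucleus. Of 34 such genes tested, none was called with TNF-α (median log2 fold change 0.0081, 1 with an unadjusted p under 0.05). None was called with 5-OH-TMT either, where the median was -0.21, 27 lay below 0, 15 had an unadjusted p under 0.05 and 15 were lower without overlap, which is 15 of 34 beside the 15.5% of all genes. An unadjusted p under 0.05 was found for 2673 of all 18079 genes with TNF-α and for 3632 with 5-OH-TMT. Voom called 0 of the 34 with TNF-α and 1 with 5-OH-TMT, beside 4.95% and 2.06% of all genes. In the knockdown 9 were called lower and none higher, with a median of -0.26 and 31 below 0. Of the 9 called, those that fell most were TFB2M, which opens the promoters for the mitochondrial RNA polymerase (-0.41 ± 0.11, adjusted p = 0.0249), SLIRP, which stabilises the mRNAs (-0.40 ± 0.12, adjusted p = 0.0325), TRMT10C, a subunit of the RNase P that cuts at the 5′ end of tRNAs (-0.39 ± 0.085, adjusted p = 0.0083), SUPV3L1, the helicase of the RNA degradation complex (-0.38 ± 0.081, adjusted p = 0.00725), and FASTKD3, an RNA-binding protein (-0.37 ± 0.11, adjusted p = 0.0437). The share of 9 in 34 stands beside the 8.08% of all genes that were called lower, and the count ranged from 2 to 10 when single libraries were left out and was 1 after rescaling to a fixed sum of FPKM.

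The nuclear genes for subunits of complexes I, III, IV and V showed the same side in the knockdown. Of 72 tested, 14 were called lower and none higher, with a median of -0.18 and 66 below 0. The 14 of 72 stand beside the 8.08% of all genes called lower, and the count ranged from 6, without knockdown library 1, to 19 when single libraries were left out. NDUFV3, an accessory subunit of complex I, fell by 0.54 ± 0.11 on the log2 scale (adjusted p = 0.00511), ATP5MC1, a gene for the c-ring of ATP synthase, by 0.52 ± 0.092 (adjusted p = 0.00217) and NDUFB9, also of complex I, by 0.48 ± 0.10 (adjusted p = 0.0077). By complex, the genes called lower were 5 of 37 in complex I, 3 of 9 in complex III, 1 of 11 in complex IV and 5 of 15 in complex V, where 8.08% of all genes were called lower, and the complexes were not tested against each other. With TNF-α and with 5-OH-TMT none of the 72 was called, with medians of -0.078 and 0.044. Of the 72, 1 and 13 had an unadjusted p under 0.05, beside 2673 and 3632 of all 18079 genes. Voom called 0 and 1 of them, beside 4.95% and 2.06% of all genes.

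**Figure D5:**
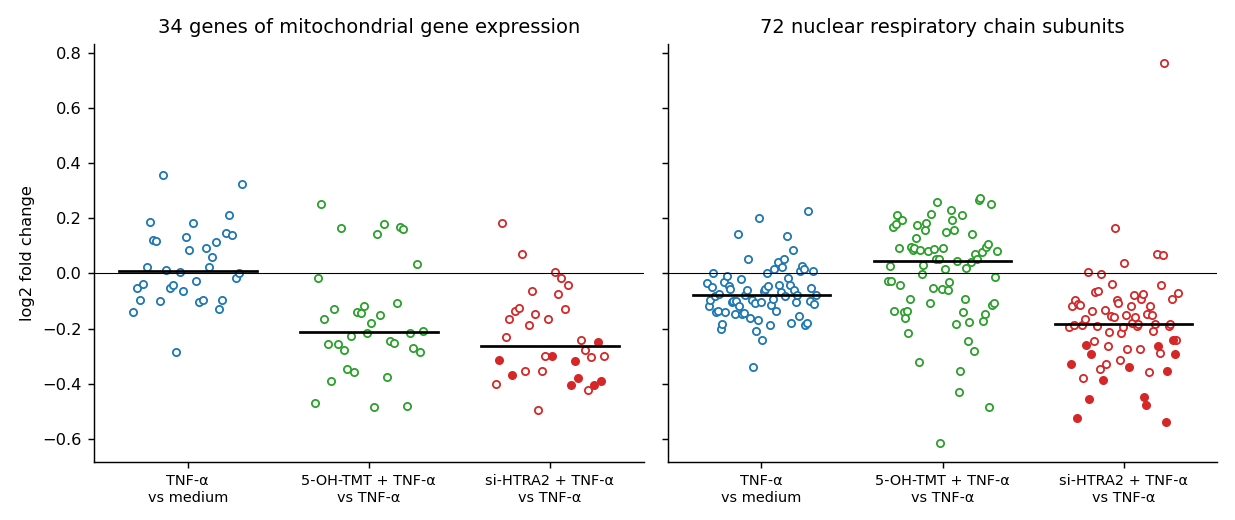
Log2 fold change of the 34 nuclear genes of mitochondrial gene expression (left) and the 72 nuclear respiratory chain subunits (right) in the 3 comparisons; each point is a gene, filled where the adjusted p was under 0.05, and the bar is the median. Filled points occur in the knockdown only, 9 and 14, and all lie below 0.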

How the data were processed

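The authors deposited 1 table of FPKM per gene for 12 poly(A)-selected libraries (NEBNext Ultra), and the submitters' processing notes name CASAVA 1.8, HISAT2 2.0.4, HTSeq 0.9.1 and build hg38. Whether counting used the strand is not given in the sources used here. Multiplying FPKM by gene length and dividing by the smallest such product above 0 in each library gave whole reads for 100% of values (relative tolerance 0.0001). The FPKM carried a median-of-ratios factor of 1 in every library.

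With R 4.3.3 and limma 3.58.1, a model was fitted to log2(FPKM + 0.1) for the 18079 genes that averaged 0.1 FPKM or more over all libraries, with 1 mean per group (eBayes with trend, 8 residual degrees of freedom), two-sided, with Benjamini-Hochberg adjustment over all genes. A fold change is therefore that of log2(FPKM + 0.1). The fit was run on simulated counts with the same dispersion for every gene, large changes only and no outlying library. That run therefore does not cover smaller changes or the spread of these libraries. Shares, compositions and ratios were described without a test. Sequences were read with Biopython 1.88. Alternatives were other pseudocounts, filters, scalings, variance models and sample sets, the replicate number as a term, and voom on the recovered reads (with all libraries, and without knockdown library 2), which with all libraries called 895, 373 and 3713 genes in the 3 comparisons. The members and gene lists were chosen with earlier results of these data known. Named were all mRNAs and rRNAs, tRNAs with a mean of at least 10 reads, the 5 machinery genes and the 3 nuclear subunits called that moved most in each direction, and HTRA2.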

Additional observations from a re-analysis of the deposited data

How the results depend on the processing

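In the knockdown, MT-RNR2 and MT-RNR1 kept their direction and an adjusted p under 0.05 under every alternative run. MT-RNR2 ranged from 1.04 to 1.29 on the log2 scale and MT-RNR1 from 0.46 to 0.63, the fits without single libraries included. Rescaling by the median of ratios gave the main values, since the deposited factors were already 1. Replicate numbers did not pair the libraries, as the deviations of 18 same-numbered pairs correlated at -0.104 to 0.0383. With the replicate number as a block no member's call changed (MT-RNR2 1.12), and 6 machinery genes and 11 nuclear subunits were called in the knockdown, beside 2660 of all 18079 genes. Depth sets little limit for the mRNAs and rRNAs. For 20 tRNAs it allows only the upper limits given, which do not cover how reads were assigned to neighbouring genes.

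Counts of called genes moved by over 1.5 times as follows. In the knockdown, voom called 4 mRNAs, and 0 to 1 were called when single libraries were left out (MT-ND2, adjusted p = 0.0425, without knockdown library 3). Machinery genes called in the knockdown numbered 5 with no filter, 1 after rescaling to a fixed sum, 2 in a fit of only the groups compared, 5 without the trend, 5 without TNF-α library 3 and knockdown library 2 together, and 2 to 10 without single libraries. Of all genes these settings called, in that order, 2629 of 31951, 2948 of 23156, 2222 of 18079, 2761 of 18079 and 2569 of 18073, and 2000 to 3534 without single libraries. The main fit called 3152 of 18079. Without TNF-α library 2 or 3 there were 3 each, without knockdown library 1 there were 2 and without knockdown library 3 there were 4. Nuclear subunits called there numbered 6 in the fit of only the groups compared and 6 to 19 without single libraries, with 9 without TNF-α library 1 and 6 without knockdown library 1. With 5-OH-TMT, the fit of only the groups compared called 3 machinery genes and 6 nuclear subunits, voom called 1 of each, voom without knockdown library 2 (added after seeing the data) called 5 and 6, and leaving out single libraries gave 0 to 1 of each. Of all 18079 genes the first 3 of these settings called 911, 373 and 1609, against 7 in the main fit. Fits without single libraries called 1 to 571 genes. With TNF-α, 0 to 1 machinery genes were called without single libraries, where these fits called 524 to 878 of all genes. Voom without knockdown library 2 called 1 mRNA with TNF-α, MT-ND5, and 0 in the knockdown. That voom fit called 1115 of all 18079 genes with TNF-α and 3956 in the knockdown. As a share of the summed FPKM, the mRNA difference was -1.03 percentage points for TNF-α against medium, -0.41 rather than -0.12 for 5-OH-TMT, and -1.29 for the knockdown, where FPKM weights short genes more. The cause of the other changes was not tested.

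None of the log2 fold changes that changed sign passed the threshold in that setting. Without TNF-α library 3 and knockdown library 2 together, a choice made after seeing the data, TNF-α against medium gave MT-ND1 0.0016, MT-ND2 0.055, MT-ND3 0.00016, MT-ND4 0.020, MT-CYB 0.039, MT-CO3 0.015 and MT-ATP6 0.051. The same setting with 5-OH-TMT gave MT-ND4L -0.13, MT-CYB -0.11, MT-CO2 -0.075, MT-CO3 -0.078, MT-ATP6 -0.091 and MT-RNR1 -0.050, and in the knockdown MT-ND4 0.013 and MT-CO1 0.11. Quantile normalization gave MT-CYB 0.025 and MT-CO3 0.082 with TNF-α, MT-CYB -0.00064, MT-CO3 -0.082 and MT-RNR1 -0.026 with 5-OH-TMT, and MT-CO1 0.087 in the knockdown. Rescaling to a fixed sum gave MT-CO2 -0.014 and MT-RNR1 -0.0098 with 5-OH-TMT and MT-CO1 0.025 in the knockdown. Division by the plain sum of reads, also added later, gave MT-CO2 -0.0071 and MT-RNR1 -0.0033 with 5-OH-TMT, and voom gave MT-ND4 0.0050. Voom without knockdown library 2 gave MT-ND1 0.056, MT-ND4 0.12, MT-ND5 0.060, MT-CO1 0.16 and MT-CO2 0.048 in the knockdown.

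Leaving out single libraries gave ranges across 0 for TNF-α against medium in MT-ATP6 (-0.23 to 0.051), MT-ATP8 (-0.040 to 0.43), MT-CO3 (-0.19 to 0.015), MT-CYB (-0.23 to 0.039), MT-ND1 (-0.28 to 0.0016), MT-ND2 (-0.17 to 0.055), MT-ND3 (-0.21 to 0.00016) and MT-ND4 (-0.17 to 0.020). With 5-OH-TMT these were MT-ATP6 (-0.091 to 0.19), MT-CO1 (-0.084 to 0.025), MT-CO2 (-0.075 to 0.097), MT-CO3 (-0.078 to 0.13), MT-CYB (-0.11 to 0.16), MT-ND1 (-0.16 to 0.12), MT-ND2 (-0.21 to 0.023), MT-ND3 (-0.17 to 0.040), MT-ND4 (-0.11 to 0.083), MT-ND4L (-0.13 to 0.17), MT-ND5 (-0.15 to 0.068) and MT-RNR1 (-0.050 to 0.11). In the knockdown they were MT-CO1 (-0.15 to 0.16), MT-CO2 (-0.41 to 0.054), MT-ND1 (-0.47 to 0.061), MT-ND4 (-0.23 to 0.12), MT-ND4L (-0.088 to 0.22) and MT-ND5 (-0.32 to 0.065).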
